A study of Homo sapiens with 14 samples.

Results

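TNFSF11, WNT4 and AREG encode secreted or shed proteins through which progesterone acts from one mammary cell on another. They were taken as 3 named genes out of 19817 protein-coding genes on chromosomes 1 to 22 and X. Every region called within the GRCh38 RefSeq span of a gene, or within 50 kb on either side, was counted as its own, which gave 26 regions over the 4 deposited peak lists. The lists came from ChIP-seq, the sequencing of DNA pulled down with an antibody to a chromatin protein, in T47D cells, an oestrogen and progesterone receptor positive breast cancer line. The cells were kept in medium with 5% serum and were given ethanol vehicle or progesterone (P4) for 1 h at a dose not given in the sources used here. One antibody recognised the progesterone receptor (PR) and the other POLR3A, which is the catalytic subunit of RNA polymerase III. Each antibody and treatment had 3 replicate libraries but a single list, so no value below has a replicate check, and all comparisons are descriptions without a test. T47D is 1 cell line of the luminal type, and RNA and protein were not measured here, so nothing below speaks to how much of each mediator the cells made.

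In the breast, progesterone drives side branching and alveolar growth largely through luminal cells that carry PR, which signal to neighbours that lack it. TNFSF11, also called RANKL, is a ligand of the tumour necrosis factor family whose receptor RANK (TNFRSF11A) sits on those neighbours. WNT4 is a WNT ligand received by Frizzled and LRP receptors. AREG, amphiregulin, is an epidermal growth factor family ligand that is cut from the cell surface by ADAM17 and binds the receptor EGFR. PR is a transcription factor that binds DNA as a dimer at response elements, often far from the genes it acts on. RNA polymerase III transcribes tRNA, 5S ribosomal RNA and other short RNA genes, and none of the 3 genes here is known as one of its templates.

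The starts of the genes are shown first, because PR was listed at some of them under P4. The 250 bases before each RefSeq start (GRCh38.p14) are printed 5′ to 3′ on the strand of the gene. TNFSF11 has 2 listed starts, 11.4 kb apart, and the other genes have 1 each. For the upstream TNFSF11 start, capitals mark the 54 bases that lie inside a PR region of the P4 list. In the other sequences, none of which lies in a region, capitals mark matches to the motifs named after them.
TNFSF11 upstream start, chr13:42562486-42562735, plus strand: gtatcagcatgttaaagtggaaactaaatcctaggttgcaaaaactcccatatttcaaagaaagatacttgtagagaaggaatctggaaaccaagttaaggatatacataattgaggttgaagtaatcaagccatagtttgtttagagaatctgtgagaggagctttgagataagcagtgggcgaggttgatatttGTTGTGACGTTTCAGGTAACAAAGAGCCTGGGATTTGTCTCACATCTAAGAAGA
TNFSF11 downstream start, chr13:42573902-42574151, plus strand: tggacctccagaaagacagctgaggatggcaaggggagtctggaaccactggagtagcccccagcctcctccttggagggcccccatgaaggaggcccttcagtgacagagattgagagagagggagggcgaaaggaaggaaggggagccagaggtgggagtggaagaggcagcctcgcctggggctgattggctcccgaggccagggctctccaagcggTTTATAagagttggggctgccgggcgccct
WNT4, chr1:22143098-22143347, minus strand: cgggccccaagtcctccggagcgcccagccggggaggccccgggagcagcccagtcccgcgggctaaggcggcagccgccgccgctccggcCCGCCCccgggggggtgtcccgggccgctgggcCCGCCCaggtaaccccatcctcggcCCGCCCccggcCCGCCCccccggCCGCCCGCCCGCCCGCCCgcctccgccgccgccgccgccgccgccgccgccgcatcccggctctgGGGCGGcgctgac
AREG, chr4:74444886-74445135, plus strand: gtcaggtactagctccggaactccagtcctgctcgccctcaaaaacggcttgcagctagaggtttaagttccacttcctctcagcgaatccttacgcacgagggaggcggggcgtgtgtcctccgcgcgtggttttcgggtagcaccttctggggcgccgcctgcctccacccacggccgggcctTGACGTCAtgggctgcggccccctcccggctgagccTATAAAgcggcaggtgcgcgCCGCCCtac

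These stretches differ in base composition. GC content was 37.6% before the upstream TNFSF11 start, 62.8% before its downstream start, 86.8% before WNT4 and 65.2% before AREG, against a median of 58.0% over the 35116 start windows of the table. The upstream TNFSF11 stretch holds 2 CpG dinucleotides and the WNT4 stretch 40, against a median of 11. Motifs were searched on both strands by their letters. The full progesterone response element GNACANNNTGTNC, present in 0.327% of all start windows, matched in none of the 4 stretches. Neither did AGAACA, a longer and narrower form of its arm GNACA, present in 12.4%. The arm GNACA was not searched for by itself, and on the other strand its letters occur before WNT4 and AREG, as TGTCC. The lack of a match says only that the searched letters are not in these 250 bases. The sequence under the other PR regions was not used here. The core of the cyclic AMP response element, TGACGT (7.10% of all windows), occurs at position -50 of the upstream TNFSF11 start, inside the PR region, and at position -65 of AREG, where it overlaps its own match on the other strand at -63. The TATA box TATAAA (10.7%) occurs at -29 of AREG and, on the other strand, at -30 of the downstream TNFSF11 start. The GC box GGGCGG (42.6%) has 9 matches before WNT4, some of which overlap one another, and 1 before AREG.

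Under P4, PR was listed at the upstream start of TNFSF11 and at the start of AREG, and at no start of WNT4. At TNFSF11 the P4 region chr13:42562682-42562984 spans the upstream start, with its summit 96 bp into the gene. Its fold enrichment over background was 9.65 and its −log10 q, the peak caller's confidence score, was 29.8, at percentile 87.6 of the P4 list. The vehicle list has no region there, and its nearest region ends 8360 bp away. Among 22131 annotated starts of protein-coding genes, 5.38% had a nearer PR summit under P4. The same share was 27.7% for the AREG start, 48.4% for the WNT4 start and 69.2% for the downstream TNFSF11 start. The downstream TNFSF11 start, by contrast, had its nearest PR summit 11.3 kb away under P4 and 20.3 kb away under vehicle.

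At AREG both PR lists hold a region just inside the gene. The vehicle region chr4:74445471-74445728 had a fold of 3.33 and a −log10 q of 3.36, at percentile 24.7 of its list. The P4 region chr4:74445155-74445789 covers it entirely, begins 19 bp after the start, and had a fold of 9.65 and a −log10 q of 36.8, at percentile 89.6 of its list. The summits lie 523 bp and 483 bp into the gene. The lists differ in length and depth is unknown, so these ranks do not measure a change.

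At WNT4 the nearest PR regions under P4 flank the start without reaching it. The stronger, chr1:22145333-22145755, has its summit 2407 bp upstream, with a fold of 8.39, a −log10 q of 23.5 and percentile 85.0. The weaker, chr1:22141220-22141609, has its summit 1633 bp inside the gene, with a fold of 2.94 and a −log10 q of 2.30. Both also lie within LOC105376845, a long non-coding RNA gene that overlaps the 5′ end of WNT4, and the lists do not say which gene a region serves. The PR vehicle region nearest to either is 28811 bp away.

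Counted over the 300 bases around a start (250 before and 50 after), PR was at 2 of the 3 genes under P4 and at 0 of 3 under vehicle. Over the 15811 protein-coding genes with a start in the table, 27.3% had such a PR region under P4 and 9.05% under vehicle, and 19.6% had it under P4 alone. TNFSF11 and AREG were both among that 19.6%, although AREG had a vehicle region 335 bp past its start. With a window of 1 kb on each side, a distance chosen after the data had been seen, the counts were 2 of 3 under P4 and 1 of 3, AREG, under vehicle, against 48.4% and 22.7% of all genes.

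**Figure D1:**
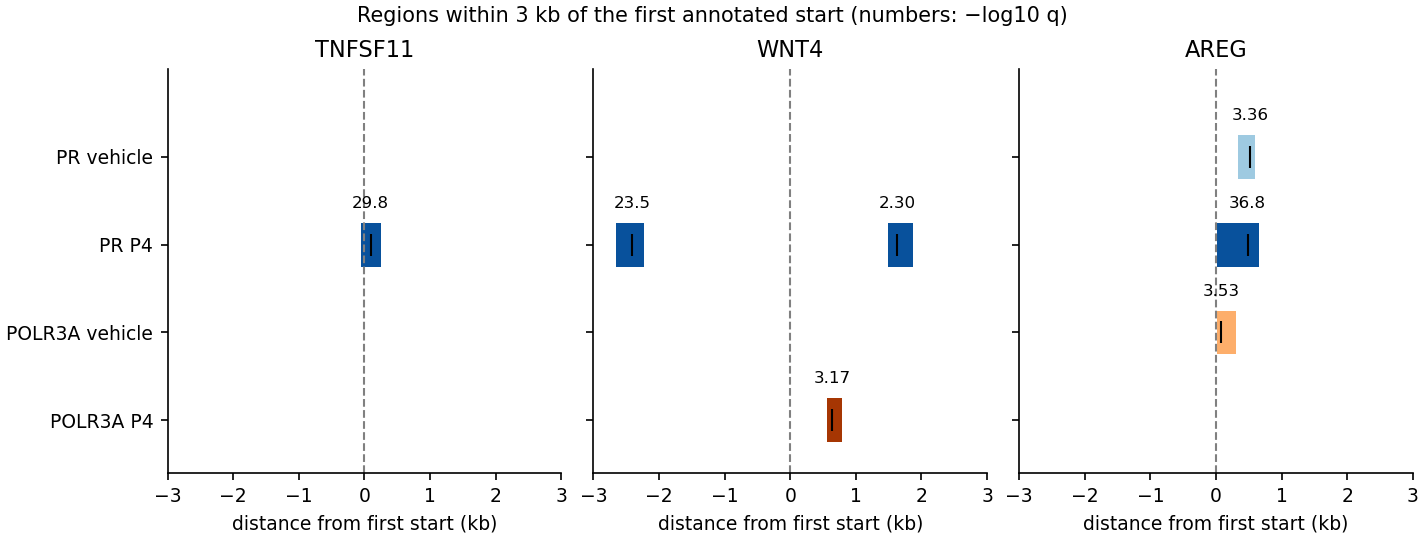
Regions of the 4 lists within 3 kb of the upstream or only start of each gene, on an axis of distance from the start in kb in the direction of transcription. Bars are regions, ticks are summits and numbers are −log10 q. PR under P4 covers the TNFSF11 start (29.8) and begins at the AREG start (36.8), while at WNT4 it lies on both sides (23.5 and 2.30), and each POLR3A bar is present under a single treatment.

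Beyond the starts, PR regions were spread differently around each gene. Over all 3 windows the PR vehicle list held 7 regions and the PR P4 list 17, covering 2662 bp and 6567 bp. All 3 genes had a PR region under each treatment, but so did most genes: 74.6% of the 19817 protein-coding genes had one under vehicle and 90.5% under P4. The presence of a PR region is therefore near the background and sets none of these genes apart. All 3 genes had more PR regions under P4 than under vehicle, as did 87.2% of all protein-coding genes. This did not hold for each gene under every setting: at a −log10 q of 10 or more TNFSF11 had 3 under each treatment, and with 10 kb on each side AREG had 1 under each.

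In the TNFSF11 window, chr13:42512736-42658013, the PR vehicle list held 3 regions and the PR P4 list 5, all of them upstream of the gene except the region at the start. The strongest lie about 9 kb upstream. Under vehicle these were chr13:42553140-42553458 (fold 7.36, −log10 q 16.8) and chr13:42553729-42554321 (fold 10.8, −log10 q 32.7). Under P4 the same 1204 bp stretch was divided differently, into chr13:42553131-42553975 (fold 13.4, −log10 q 50.6) and chr13:42554133-42554334 (fold 5.87, −log10 q 12.2). The strongest vehicle and P4 summits of this stretch lie 3 bp apart, 8.88 kb from the start. A further region 31.7 kb upstream was in both lists, with a fold of 7.36 and −log10 q of 16.8 under vehicle and a fold of 5.03 and −log10 q of 8.92 under P4. It was the sole site in the 3 windows whose best P4 values were below its vehicle values. A weak region 5.99 kb upstream (−log10 q 5.93) was in the P4 list alone. From 248 bp past the upstream start to 50 kb past the end of the gene there was no PR region in either list.

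In the WNT4 window, chr1:22067313-22193097, there was 1 PR region under vehicle and 6 under P4. The region in both lists lies 31.6 kb upstream of WNT4, inside the long non-coding RNA gene LOC105376850. It had a fold of 5.75 and −log10 q of 10.4 under vehicle (chr1:22174567-22174809) and a fold of 12.2 and −log10 q of 43.4 under P4 (chr1:22174561-22174862), with summits 13 bp apart. Of the 5 regions in the P4 list alone, those on either side of the start are described above. The other 3 lie 72.2 to 74.3 kb from the start, past the end of WNT4 and within CDC42, which encodes a small GTPase of the cytoskeleton. The strongest of them (chr1:22068719-22068945, −log10 q 14.9) also touches the pseudogene MPHOSPH6P1, and the others had −log10 q of 1.84 and 1.38, close to the limit of the list.

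In the AREG window, chr4:74395136-74505005, the PR vehicle list held 3 regions and the PR P4 list 6. Apart from the region at the start, all lie downstream of the gene, 26.3 to 35.8 kb from the start. The strongest PR region of the 3 windows is here, 30.1 kb past the start. It had a fold of 11.0 and −log10 q of 36.8 under vehicle (chr4:74475036-74475423) and a fold of 18.2 and −log10 q of 91.0 under P4 (chr4:74474974-74475558). The P4 region ranks 5055 of 111515. A neighbour 28.5 kb past the start was in both lists with closer values, a fold of 8.74 and −log10 q of 22.8 under vehicle and 8.98 and 27.6 under P4. The 3 regions in the P4 list alone had −log10 q of 3.96, 8.14 and 8.88.

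Within 50 kb, the distal PR regions thus lay upstream at TNFSF11, upstream and in a neighbouring gene at WNT4, and downstream at AREG. Those in both lists lie 8.48 to 31.7 kb from a start. This layout depends on the width. Between 50 and 100 kb, both lists held regions 69.1 kb upstream of AREG (P4 −log10 q 182) and 73.1 kb past its start (14.9). At WNT4, both held regions 101 kb (55.1) and 117 kb (21.5) past the start. At TNFSF11, 1 region 84.1 kb upstream (12.2) was in the P4 list alone.

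**Figure D2:**
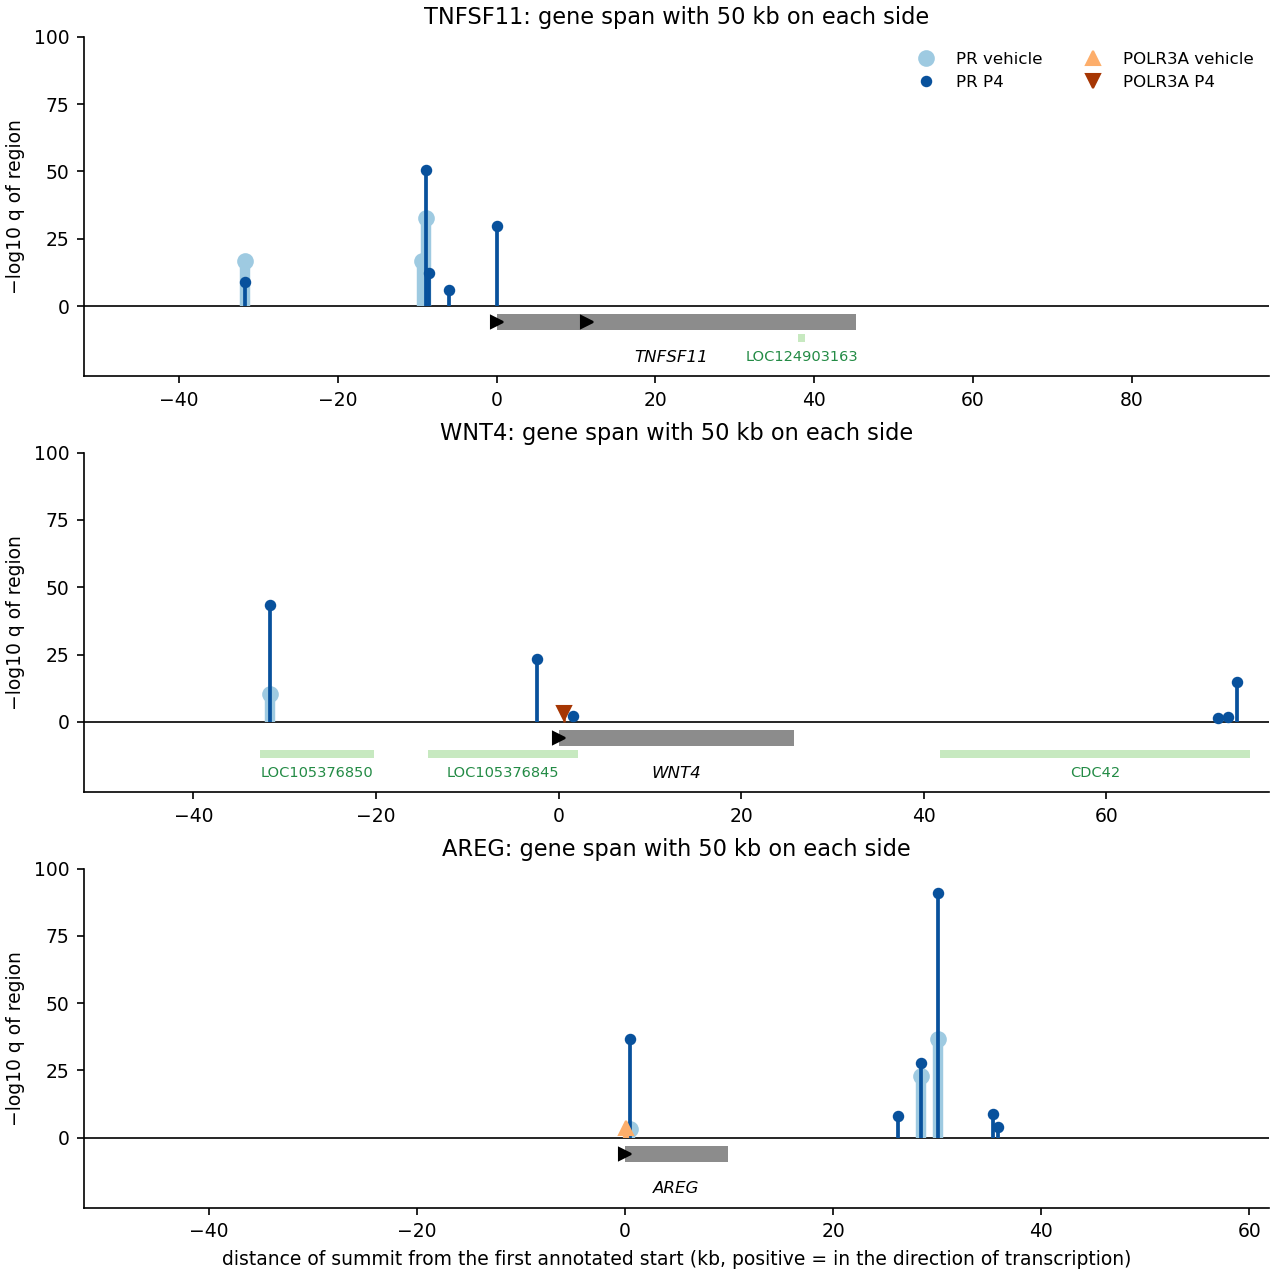
PR and POLR3A regions in the 3 windows, with the distance of each summit from the upstream or only start in kb on the x axis and −log10 q on the y axis. Grey bars are the genes, arrowheads their annotated starts and green bars neighbouring genes. The tallest marks are those 8.88 kb upstream of TNFSF11 (50.6), 31.6 kb upstream of WNT4 (43.4) and 30.1 kb past the AREG start (91.0). Each has a vehicle mark below.

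All 7 vehicle regions overlapped a P4 region (100%, 95% Wilson interval 64.6 to 100), and 77.5% of the 29575 vehicle regions within 50 kb of any protein-coding gene did so. When the overlap had to cover 50% of both regions, 4 of the 7 had a P4 counterpart (57.1%). The share near all protein-coding genes was not computed at that limit, so 77.5% is not its background. Of the 17 P4 regions, 7 had a vehicle counterpart (41.2%, interval 21.6 to 64.0), against 24.2% of 92238 regions near any protein-coding gene. By gene these were 3 of 5 at TNFSF11, 1 of 6 at WNT4 and 3 of 6 at AREG. At the 50% limit, 4 of the 17 had a vehicle counterpart (23.5%), again without a share for all genes. The intervals cover counting error only, and regions of 1 gene share a neighbourhood. The 7 P4 regions with a vehicle counterpart had a median −log10 q of 36.8 and the 10 without one a median of 7.04, against 26.6 and 3.96 over all regions near protein-coding genes. The strongest P4 regions without a vehicle counterpart were those at the TNFSF11 start and 2.41 kb upstream of WNT4. Both stayed in the P4 list when it was cut to the length of the vehicle list, which left 12 of the 17 regions.

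Per 100 kb of window, the density of PR regions under vehicle was 2.07 at TNFSF11, 0.795 at WNT4 and 2.73 at AREG, against a median of 1.51 over all protein-coding genes. Under P4 it was 3.44, 4.77 and 5.46, against a median of 5.28. WNT4 was lowest under vehicle and TNFSF11 under P4, but the order depended on the setting. At a −log10 q of at least 5, WNT4 was lowest under P4 (2.39). At 10 or more TNFSF11 was (2.07, against 2.39 at WNT4 and 2.73 at AREG). With 10 kb on each side AREG was lowest under P4 (3.35). With 100 kb TNFSF11 was lowest under P4 (2.45) and under vehicle (1.22, against 1.33 at WNT4). With the P4 list cut to the length of the vehicle list, WNT4 had 3 regions in place of 6 and was lowest there too, with 2.39 per 100 kb against 2.75 at TNFSF11 and 4.55 at AREG. In percentiles of all protein-coding genes the densities over the full lists at 50 kb lie in the middle of the range. They lie between 35.6 and 67.2 under vehicle and between 38.3 and 51.0 under P4. Chromosomes differ in density: the median gene had 0.693 PR regions per 100 kb under vehicle on chromosome 13, 1.75 on chromosome 1 and 0.511 on chromosome 4, and 2.10, 6.09 and 1.88 under P4. TNFSF11 and AREG were thus above, and WNT4 below, the median of their own chromosome in both lists. Whether DNA copy number in T47D bears on these values was not tested.

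**Figure D3:**
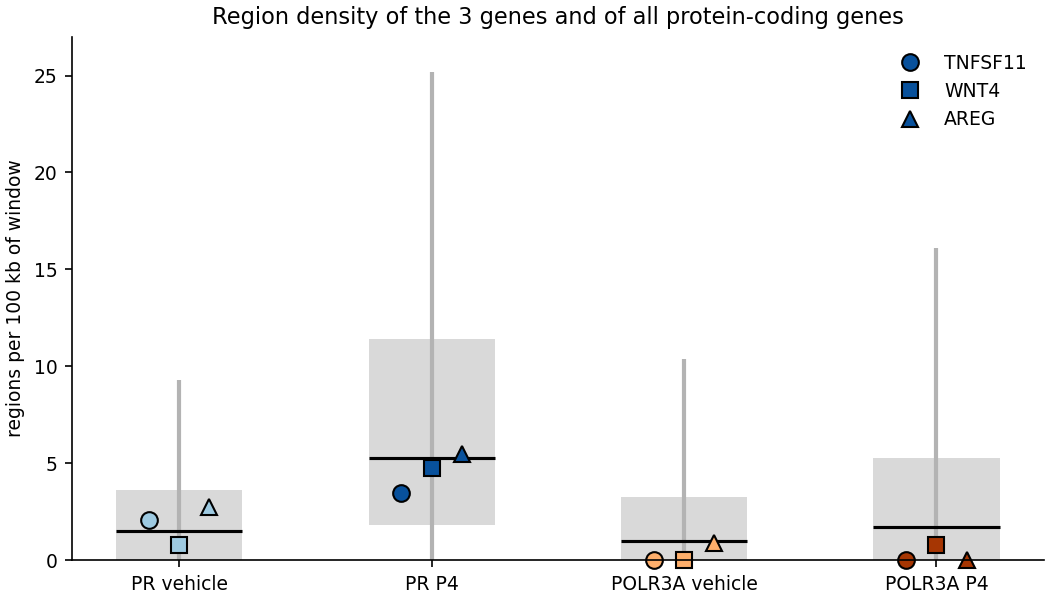
Regions per 100 kb of window in each list for the 3 genes (symbols) and for all 19817 protein-coding genes (line, median; box, quartiles; bar, percentiles 5 to 95). The PR symbols lie inside the box in both lists, and the POLR3A symbols lie at or below the median line.

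POLR3A regions were few in the 3 windows, with 1 in each list at different genes, where the median protein-coding gene had 2 in each list. By density AREG was at percentile 47.1 of all protein-coding genes under vehicle and WNT4 at 36.8 under P4. Genes with none were at 15.7 under vehicle and 14.0 under P4. Over all protein-coding genes, 68.7% had a POLR3A region within 50 kb under vehicle and 71.9% under P4, while 1 of the 3 genes had one in each list. AREG had one under vehicle and none under P4, as 6.30% of all genes did, and WNT4 had one under P4 and none under vehicle, as 9.54% did. Under vehicle the region was at the start of AREG, chr4:74445149-74445440, with its summit 80 bp into the gene, a fold of 3.99 and a −log10 q of 3.53. It lies 30 bp from the PR vehicle region and overlaps the PR P4 region there. Under P4 no POLR3A region lies within 523 kb of the AREG start.

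The POLR3A region under P4 was in WNT4, chr1:22142302-22142533, with its summit 638 bp inside the gene, a fold of 3.59 and a −log10 q of 3.17. It also lies in LOC105376845, a start of which is nearer to the summit, at 391 bp. It lies 692 bp from the nearest PR region of the P4 list, and the vehicle list has no POLR3A region within 113 kb of it. These values are at percentiles 49.9 and 46.7 of their lists, and neither region remained at a −log10 q of at least 5. TNFSF11 had no POLR3A region in either list. Its nearest summits were 168 kb from the upstream start under P4 and 1502 kb under vehicle. Chromosome 13 is sparse in POLR3A regions as a whole, with 43.5% and 45.2% of its genes having one, and chromosome 4 has 44.0% and 51.9%.

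Within the same treatment, no region of one factor overlapped one of the other in these windows. This was 0 of 7 PR regions under vehicle (interval 0 to 35.4%) and 0 of 17 under P4 (0 to 18.4%). Near all protein-coding genes, 21.8% and 20.0% of PR regions overlapped a POLR3A region of the same treatment. With 1 POLR3A region per list in these windows, the PR shares had to be near 0. The intervals do not allow for that, so no avoidance can be read from them. Counted the other way, 0 of 1 POLR3A regions overlapped PR in each treatment (interval 0 to 79.3%). The shares near all protein-coding genes were 27.8% under vehicle and 49.1% under P4. At the start windows POLR3A was at 1 of 3 genes under vehicle, against 20.4% of all genes, and at 0 of 3 under P4, against 18.9%. AREG, with POLR3A at its start under vehicle and not under P4, shared that state with 8.48% of all genes.

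Receptors and partners of the 3 ligands were counted in the same way. For the RANK axis, 9 of 10 genes had a PR region under vehicle and 9 under P4, close to the shares of all genes under P4 (90.5%) and above them under vehicle (74.6%). The median density under P4 was 10.0 per 100 kb, against 5.28 over all genes. Under vehicle it was 2.95, also above the 1.51 of all genes. TNFRSF11A, the receptor of TNFSF11, had 0 PR regions under vehicle and 3 under P4 (best −log10 q 11.3). TNFRSF11B, the decoy receptor osteoprotegerin, had 1 weak region under vehicle (1.95) and 0 under P4. The densest genes of the list under P4 were NFKB2 and CCND1, 21.2 each, and IKBKB, 11.2. Their best PR −log10 q under P4 was 19.2, 26.9 and 409.9, against a median of 43.0 over all genes with a PR region. Their POLR3A densities under P4 were also high, 17.5, 15.0 and 4.34, against a median of 1.72. Density therefore does not mark a window as strong in PR or as particular to PR. CCND1 encodes cyclin D1, and NFKB2 and IKBKB a subunit and a kinase of the NF-κB pathway.

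For the WNT axis, 25 of 34 genes had a PR region under vehicle and 30 under P4. The median density was 0.962 under vehicle and 3.80 under P4, below the 1.51 and 5.28 of all genes. The densest were the receptor gene FZD4 (27.3), the ligand gene WNT10B (25.4) and the co-receptor gene LRP5 (21.5). Their POLR3A densities under P4 were 11.8, 20.7 and 9.57, and their best PR −log10 q was 84.0, 21.0 and 195. RSPO3, WNT2, WNT5A and LRP6 had none in either list. These shares, 73.5% and 88.2%, are close to the 74.6% and 90.5% of all genes.

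For the EGF axis, 11 of 12 genes had a PR region under each treatment, 91.7%, against 74.6% and 90.5% of all genes. The median density under P4 was 4.43, below the 5.28 of all genes, but under vehicle it was 2.19, above their 1.51. RHBDF2 (21.5) and RHBDF1 (13.5), partners of the sheddase ADAM17, and the ligand gene HBEGF (9.67) were densest. Their POLR3A densities under P4 were 6.89, 5.07 and 4.40, and their best PR −log10 q was 37.7, 18.6 and 47.8. EREG, the epiregulin gene next to AREG, held the strongest PR region within 100 kb of AREG, 69.1 kb upstream of it (chr4:74375583-74376196 under P4, −log10 q 182, and chr4:74375853-74376205 under vehicle, −log10 q 68.1). Of 15 other secreted mediators, 6 had a PR region under vehicle and 11 under P4, below the 74.6% and 90.5% of all genes. The densest were TGFB3 (10.4), TGFB1 (8.09) and TGFB2 (7.03), and FGF7, FGF10, CALCA and ADAMTS18 had no PR region under either treatment. For the TGFB genes, in that order, POLR3A density under P4 was 4.80, 4.05 and 1.51. The best PR −log10 q was 24.0, 167 and 23.6.

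Other genes came close to the 3 in their densities over the 4 lists. By Euclidean distance between the log2 values of 1 plus the density, over 18269 genes with any region, the nearest to TNFSF11 were CDADC1 (0.00288), GPT2 and AKR1D1, each with 3 and 5 PR and no POLR3A regions. The nearest to WNT4 were LOC124902508 (0.0146), CKAP2L and LYSMD2, each with 1 and 6 PR regions and 1 POLR3A region under P4. The nearest to AREG were EBNA1BP2 (0.0237), WEE1 and LGALS9B. With so few regions per gene, many genes share these counts.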

How the data were processed

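PR and POLR3A ChIP-seq was done on T47D cells given ethanol or P4 for 1 h, with 3 libraries per antibody and treatment and 1 pooled input per treatment, 14 in all. The authors deposited 4 peak lists, 1 for each antibody and treatment, in narrowPeak form. The submitters' processing notes name cutadapt, Bowtie2, MACS2 and build hg38. Versions, the control and the way replicates were combined are not given in the sources used here. The deposited columns are the fold enrichment of a region, a ratio, its −log10 q, a whole-number score, and the summit offset. The highest q in the lists was 0.0497. Depth is unknown, since the lists hold no read counts.

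Regions on chromosomes 1 to 22 and X were set against RefSeq genes of GRCh38.p14, leaving out genes of alternate sequences. The table gives no exons, so exons and introns were not told apart. A region belonged to a gene when it overlapped the span with 50 kb on each side by at least 1 bp. Starts and strands came from RefSeq start windows of 300 bases. The table has starts for 15811 of the 19817 protein-coding genes. Python 3.11.15, numpy 2.4.6, pandas 2.3.3 and scipy 1.17.1 were used. The code was tested on simulated data, and its window counts equalled those of bedtools 2.31.1 for 19817 of 19817 genes in each list.

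The text names the 3 genes, up to 3 leading regions per window and list, every region at a start, the 3 genes of most like density and up to 3 of the densest genes of each pathway list, and further pathway genes were named after their values were seen. The members and lists were chosen with earlier results of these data known. Alternatives were windows of 10 and 100 kb, −log10 q of at least 5 or 10, lists of equal length, a summit inside the window and a reciprocal overlap of 50%. Those for starts, for shares of vehicle regions and of PR regions with POLR3A, and for density by gene were chosen later, with the values known.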

Additional observations from a re-analysis of the deposited data

How the results depend on the processing

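The number of genes with a PR region was 3 in both lists under each alternative run but 1. With 10 kb on each side it was 2 under vehicle, since WNT4 then had 0 vehicle regions. The number of PR regions over the 3 windows followed the width of the window, with 3 under vehicle and 7 under P4 at 10 kb on each side, and 11 and 28 at 100 kb. Among regions of −log10 q 10 or more the P4 count was 9, against 6 under vehicle. With the P4 list cut to the length of the vehicle list it was 12, against 7 under vehicle.

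The POLR3A counts rest on 1 weak region per list. Under both stricter limits, −log10 q of 5 and of 10, 0 genes and 0 regions were left in both POLR3A lists. At 100 kb on each side, 2 genes and 3 regions were counted under vehicle and 2 regions under P4, still at 1 gene.

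At the annotated starts, 2 genes had PR under P4 at every alternative run. Under vehicle the count went from 0 to 1 within 1 kb of a start. For POLR3A under vehicle it went from 1 to 0 at a −log10 q of at least 5 or 10, and under P4 from 0 to 1 within 1 kb. Within 1 kb of a start, 30.6% of all genes had POLR3A under vehicle and 32.8% under P4. Shares of all genes at the stricter −log10 q limits were not computed. At a reciprocal overlap of 50%, 4 of the 7 PR vehicle regions shared a P4 region, 57.1% in place of 100%, below the interval printed. The other shares of overlapping regions printed for the 3 genes together stayed within their intervals under each alternative that left a region to count. These intervals are wide, so this shows little. The share of PR P4 regions with a vehicle counterpart, 41.2% as reported, was 23.5% at a reciprocal overlap of 50%. With lists of equal length it was 58.3%. At a −log10 q of at least 5 or 10 no POLR3A region was left, so those shares have no value. No paired analysis was possible because the 3 replicates of a group share 1 list, and leaving out a replicate was not possible either.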
